A study of Schizosaccharomyces pombe with 8 samples.

Results

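The genes described here build and trigger cell division in the fission yeast Schizosaccharomyces pombe. They are 35 genes listed by symbol: 9 for cortical nodes and ring myosin, 9 for ring actin and the proteins that link the ring to the membrane, 4 mitotic septins, 11 of the septation initiation network and 2 guanine nucleotide exchange factors of the GTPase Rho1. All 35 were found among the 7092 genes of the files, and all 35 averaged at least 1 FPKM (a level scaled to transcript length and to the mapped fragments of the library) over the groups, as did 6281 genes in all. Of the 35, 19 lie on chromosome I, 10 on II and 6 on III.

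RNA was compared among 4 groups of 2 libraries each. The wild-type strain carried h- leu1-32 ura4-D18, and the strain labelled ∆wee1 carried h- wee1::ura4+ leu-32 ura4-D18, so both lacked a working chromosomal ura4 and leu1 before the ura4+ cassette was placed at wee1. Each strain was grown to mid-log phase in YES medium and sampled untreated or after 15 min in 20 mM H2O2. The series' design text states that there were 2 biological replicates of each genotype and condition. The files give 1 pooled FPKM value for each gene and group, so no value per library is shown and the number of reads behind each value is unknown.

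A fission yeast cell divides by closing a ring of actin and myosin at its middle. Nodes on the cortex, placed by the anillin Mid1, gather myosin and the formin Cdc12, which polymerises the actin filaments. F-BAR proteins such as Cdc15 tie the ring to the plasma membrane. The septation initiation network, a cascade of a GTPase and protein kinases on the spindle pole body, then triggers ring closure and growth of the septum, and Rho1 with its exchange factors drives glucan synthesis there. Wee1 is the kinase that holds back Cdc2 before mitosis, and cells without it divide at a small size.

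The strain labels were checked first. The wee1 transcript (III, 721788 to 725835) had 8.91 FPKM in untreated and 8.17 FPKM in treated wild-type cells, while the untreated and treated pools labelled ∆wee1 had 16.1 and 15.5 FPKM. Its level was thus higher, not lower, under the deletion label, by 0.79 ± 0.22 on the log2 scale untreated, so the pools are called by their label throughout. The ura4 marker fitted the labels, with at most 0.131 FPKM in wild type and 185 and 235 FPKM under the ∆wee1 label. Ribosomal RNA took 3.13% of summed FPKM in untreated wild type, 22.2% in treated wild type, and, under the ∆wee1 label, 10.9% untreated and 3.19% treated. Its part in the results below was not tested. In such RNA from whole cultures, a larger share of cells in a stage of the cell cycle and more RNA per cell cannot be told apart.

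Differences are given as the log2 ratio of FPKM + 1, and each ± is the standard error (SE) implied by the fold change and statistic in the authors' deposited table. A gene is called higher or lower, or said to have risen or fallen, where that table gives Cuffdiff's q-value, a p-value adjusted for multiple tests, under 0.05. Of the members, 10 were called in at least 1 of 4 comparisons, and 25 in none. The files place each gene in a locus, which can hold several genes. Of the members, 14 were alone in their locus of the files and 21 shared it, though in RefSeq 11 of those 14 overlapped a gene on the opposite strand. The 8 members whose SE was over 0.5 in each of the 4 comparisons all shared a locus. The Spg1 inhibitor gene cdc16, for example, shares its locus with the ribosomal protein gene rps13 at 6112 FPKM in untreated wild type, and its wild-type H2O2 ratio had an SE of 3.04. A member that was not called is therefore not shown to be unchanged.

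The strain difference was called both untreated and after H2O2 for 4 members, cdc15, pxl1, etd1 and rgf3. The DNA before the annotated starts of 3 of them, which held at least 1 of the motifs searched, is shown with the letters of motifs known for transcription in mitosis and at the passage into the next cycle. The sequences come from the RefSeq assembly ASM294v3 and run 5′ to 3′ on the gene's strand up to the base before the annotated start. They cover chrI:1402937-1403160 on the minus strand for cdc15 (224 bases, since a neighbouring coding gene begins there), chrI:5087679-5087978 on the plus strand for etd1 and chrIII:1244034-1244333 on the minus strand for rgf3. Capitals mark the letters of 3 motifs, searched on both strands: GTAAACA (the forkhead motif), GNAACG (the cell cycle box) and ACGCGT (the MBF box, the same on both strands).
cdc15: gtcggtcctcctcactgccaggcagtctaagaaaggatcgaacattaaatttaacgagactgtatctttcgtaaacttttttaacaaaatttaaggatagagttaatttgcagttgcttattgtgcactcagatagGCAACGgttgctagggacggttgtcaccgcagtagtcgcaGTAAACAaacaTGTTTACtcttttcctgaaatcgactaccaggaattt
etd1: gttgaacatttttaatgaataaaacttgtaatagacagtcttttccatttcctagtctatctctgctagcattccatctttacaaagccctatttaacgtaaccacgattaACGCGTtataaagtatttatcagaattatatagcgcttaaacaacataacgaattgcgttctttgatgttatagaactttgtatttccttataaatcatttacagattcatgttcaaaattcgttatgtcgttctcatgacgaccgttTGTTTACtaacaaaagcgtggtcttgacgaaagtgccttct
rgf3: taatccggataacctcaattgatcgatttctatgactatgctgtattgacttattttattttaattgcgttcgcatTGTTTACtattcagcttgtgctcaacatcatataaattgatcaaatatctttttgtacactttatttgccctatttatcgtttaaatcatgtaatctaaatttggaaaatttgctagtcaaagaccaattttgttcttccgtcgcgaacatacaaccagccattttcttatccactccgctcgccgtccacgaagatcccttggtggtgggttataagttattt

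The cdc15 window held the forkhead letters on both strands, 48 to 42 and 37 to 31 bases before the start, and a cell cycle box at 88 to 83. The etd1 window held the forkhead letters on the opposite strand at 41 to 35 bases and an MBF box at 189 to 184. The rgf3 window held the forkhead letters on the opposite strand at 224 to 218. The letters of the 3 motifs were not found in the window before pxl1. Over 5112 windows of 300 bases before coding genes, 17.0% held GTAAACA, 31.7% GNAACG and 2.90% ACGCGT. The forkhead letters stood before 8 of the 35 members (22.9%), the cell cycle box before 9 (25.7%) and the MBF box before 2 (5.71%), imp2 and etd1. These matches are descriptions of letters and not of bound sites. No 2 of the 3 motifs overlapped in the printed windows.

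FPKM is scaled to transcript length, so levels can be set side by side among genes. In untreated wild type the members ran from 3.95 FPKM for rgf3 to 1751 FPKM for act1, with a median of 22.5 FPKM. The 3 most abundant were act1 (actin), cdc3 (profilin, which feeds actin to the formin) at 1750.2 FPKM and cdc8 (tropomyosin) at 668 FPKM. The order of act1 and cdc3 lies within their errors. Next came cdc4, the essential light chain of myosin, at 169 FPKM and spg1, the GTPase at the head of the septation network, at 126 FPKM. The septins formed a narrow band from 48.9 to 98.4 FPKM. The heavy chains myo2 and myp2 had 10.2 and 4.46 FPKM, far below the light chains cdc4 and rlc1 (78.4 FPKM). The median of the 35 was 16.4 FPKM in treated wild type, and, under the ∆wee1 label, 24.4 FPKM untreated and 21.4 FPKM treated.

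**Figure D1:**
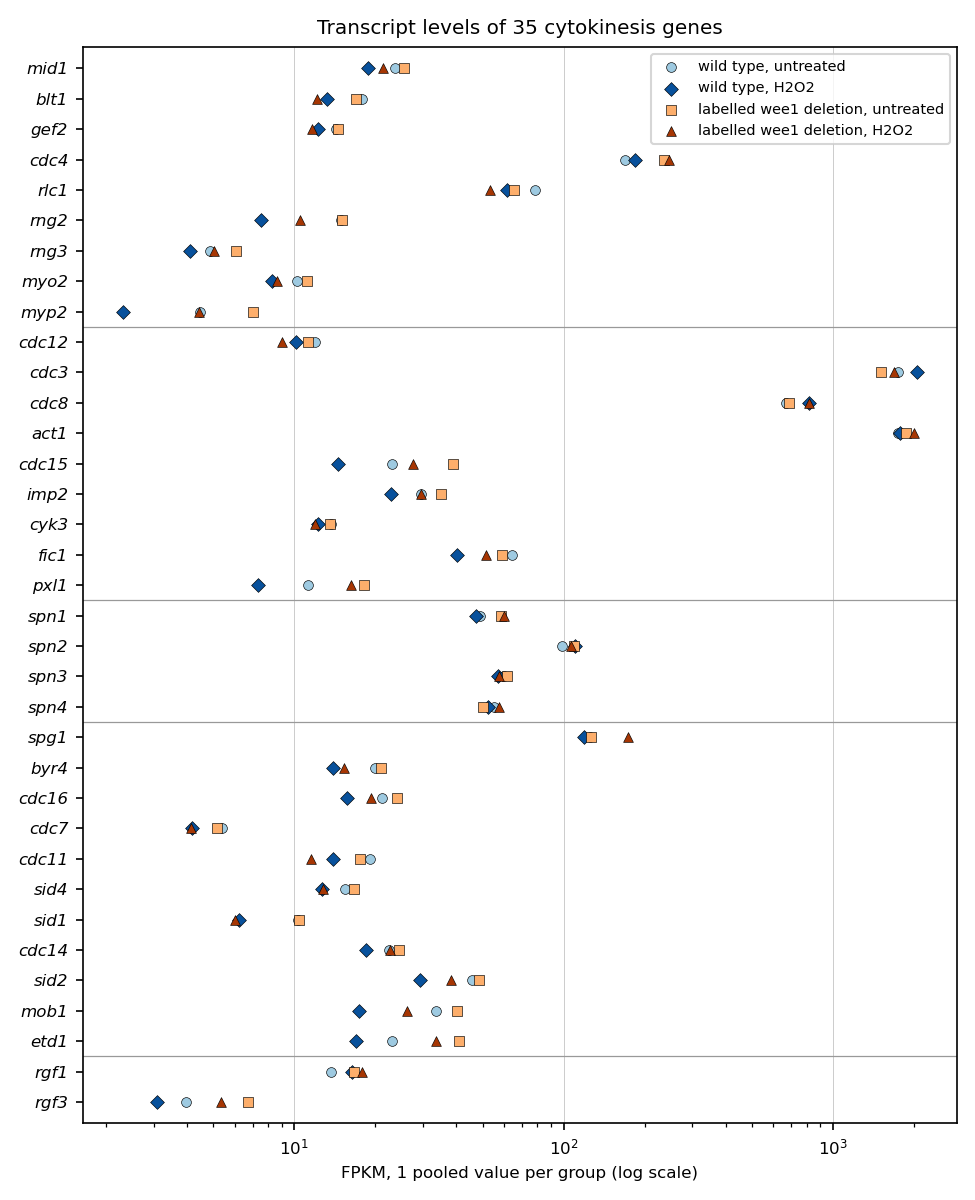
Pooled FPKM of each of the 35 genes on a log axis, 1 symbol for each of the 4 groups, with no error since the files give 1 value per group; thin lines part the 5 groups of genes. The septins and the genes act1, cdc3, cdc8 and cdc12 keep their 4 symbols close together. Among the genes that spread out are rng2, myp2, cdc15, pxl1, etd1, rgf3 and mob1, with treated wild type lowest in each. The gene sid1 also spreads, with the treated pool labelled ∆wee1 lowest.

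In wild type, H2O2 for 15 min was set against no treatment. Genes of the ring and of the septation network fell, and none rose: 7 of 35 (20.0%) were called lower in the authors' deposited table, beside 7.47% of all 6277 genes tested, and 0 were called higher, beside 6.96%. At Cuffdiff's unadjusted p under 0.05 the counts were 10 lower and 0 higher, beside 12.5% and 11.8% of all genes of at least 1 FPKM. Among 4928 nuclear protein-coding genes of at least 1 FPKM, 9.15% were called lower and 6.45% higher, and by unadjusted p 15.0% and 10.9%. Of the members alone in their locus, 5 of 14 fell, beside 14.6% of all such genes, and of those in shared loci 2 of 21, beside 4.40%. The median log2 ratio was -0.28 over the members and 0.02 over all genes of at least 1 FPKM, and 29 of 35 ratios were negative. After rescaling to equal sums of coding FPKM, these medians were -0.50 and -0.21.

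Among the node and myosin genes, rng2 and myp2 fell. The IQGAP gene rng2 (SPAC4F8.13c, I, 2645380 to 2650427), whose product crosslinks actin and recruits ring proteins, had 14.9 FPKM untreated and 7.50 FPKM after H2O2, a log2 ratio of -0.90 ± 0.21 with a q of 0.000819 in the authors' deposited table. It gave the largest change among the called members. The second myosin heavy chain gene myp2 (SPAC4A8.05c) went from 4.46 to 2.30 FPKM, by -0.73 ± 0.30 with a deposited q of 0.0133. The gene of the essential heavy chain, myo2, had 10.2 and 8.26 FPKM (-0.28 ± 0.29) and was not called. Nor was mid1, the anillin that places the nodes, at 23.7 and 18.7 FPKM (-0.32 ± 0.25). The node genes blt1, a scaffold, and gef2, a guanine nucleotide exchange factor, gave -0.40 ± 0.80 and -0.22 ± 0.56, and rng3, the myosin chaperone, -0.21 ± 0.67. These errors are wide, and the light chain genes rlc1 (-0.34 ± 0.28) and cdc4 (0.13 ± 0.27) were not called either.

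Of the actin and membrane-linked genes, cdc15, fic1 and pxl1 fell. The F-BAR gene cdc15 (SPAC20G8.05c) had 23.0 FPKM untreated and 14.6 FPKM after H2O2 (-0.63 ± 0.23, deposited q of 0.00217). The C2-domain protein gene fic1, whose product binds Cdc15 and its relative Imp2, had 64.6 and 40.3 FPKM (-0.67 ± 0.23, deposited q of 0.00217). The paxillin-like gene pxl1 had 11.2 and 7.33 FPKM (-0.56 ± 0.28, deposited q of 0.0369). All 3 encode proteins of the ring's membrane side. The other F-BAR gene, imp2, was not called at 29.5 and 22.9 FPKM (-0.35 ± 0.21, deposited q of 0.0979), and the gene of the SH3 protein Cyk3 gave -0.15 ± 0.35. No gene of the actin filaments was called. The formin gene cdc12 gave -0.22 ± 0.20, while cdc3 (1750.2 and 2059 FPKM, 0.23 ± 0.21), cdc8 (668 and 814 FPKM, 0.28 ± 0.22) and act1 (1751 and 1769 FPKM, 0.01 ± 0.27) were positive. Those 3 signs depend on the scaling, since under quantile normalization the ratios of cdc3, cdc8 and act1 were -0.36, -0.33 and -0.67, and rescaling to equal sums of coding FPKM gave -0.01 for cdc3.

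None of the 4 septin genes, whose products form a collar beside the ring, was called, with 0 at an unadjusted p under 0.05 as well. Their FPKM values untreated and treated were 48.9 and 47.2 for spn1, 98.4 and 110.4 for spn2, 60.2 and 57.1 for spn3 and 55.0 and 52.6 for spn4. The ratios ran from -0.08 for spn3 to 0.16 for spn2, against errors of 0.21 to 0.56.

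In the septation network, byr4 and sid2 fell. The gene of Byr4, the scaffold of the GTPase-activating complex that turns Spg1 off, had 19.9 and 13.9 FPKM (-0.49 ± 0.23, q of 0.0297 in the authors' deposited table). The gene of Sid2, the last kinase of the cascade, had 45.6 and 29.2 FPKM (-0.63 ± 0.21, deposited q of 0.00153). The called pair thus holds an inhibitor of the cascade and its effector kinase. The gene of Mob1, which binds and activates Sid2, had 33.6 and 17.5 FPKM, but its ratio of -0.91 ± 1.14 carried an error as large as itself. The gene of the kinase Sid1 gave -0.64 ± 0.44 and that of its partner Cdc14 -0.28 ± 0.23. The kinase gene cdc7 gave -0.31 ± 0.62, and the genes of the spindle pole scaffold, cdc11 and sid4, -0.43 ± 0.33 and -0.27 ± 0.83. The gene of Etd1, an activator of the network, gave -0.42 ± 0.26, and spg1 itself -0.08 ± 0.26 with 126 and 119 FPKM. All 11 network genes had negative ratios, and 9 of them were not called. Of the Rho1 exchange factor genes, rgf1 had 13.7 and 16.4 FPKM (0.25 ± 0.21) and rgf3 3.95 and 3.09 FPKM (-0.27 ± 0.25), neither of them called.

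The same treatment was then read in the strain labelled ∆wee1. The authors' deposited table called 3 of 35 members lower (8.57%), beside 4.13% of 6312 genes tested, and 1 higher (2.86%), beside 5.34%. At an unadjusted p under 0.05 these counts were 8 and 1, beside 8.63% and 8.87% of all genes of at least 1 FPKM. Among nuclear protein-coding genes of at least 1 FPKM, 4.84% were called lower and 5.35% higher, and by unadjusted p 9.97% and 8.53%. Of members alone in their locus 2 of 14 fell, beside 7.82%, and of those in shared loci 1 of 21, beside 2.53%, with 1 of 21 higher, beside 3.69%. The median was -0.27 over the members and -0.01 over all genes of at least 1 FPKM, and 27 of 35 ratios were negative.

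The genes that fell were rng2, cdc15 and byr4, which had also fallen in wild type. The level of rng2 was 15.1 FPKM untreated and 10.5 FPKM treated (-0.49 ± 0.21, q of 0.00745 in the authors' deposited table). That of cdc15 was 38.7 and 27.5 FPKM (-0.48 ± 0.21, deposited q of 0.0128). Untreated wild type had 23.0 FPKM of cdc15, and its gap to the treated pool labelled ∆wee1 was not tested here. The level of byr4 was 20.9 and 15.3 FPKM (-0.43 ± 0.23, deposited q of 0.0489). The gene called higher was spg1, the GTPase, at 126 FPKM untreated and 174 FPKM treated (0.46 ± 0.24, deposited q of 0.0480). The other 3 pools held spg1 between 119 and 126 FPKM. The calls of spg1 and byr4 sit at the threshold, and their adjusted p became 0.0715 and 0.0730 when the deposited p-values were adjusted within this comparison by the Benjamini-Hochberg method.

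The remaining wild-type calls were not made here. The gene sid2 had 48.3 and 38.0 FPKM (-0.34 ± 0.21, deposited q of 0.116) and myp2 7.05 and 4.44 FPKM (-0.57 ± 0.32, deposited q of 0.0772). The ratios of fic1 (58.9 and 51.7 FPKM) and pxl1 (18.1 and 16.2 FPKM) were -0.18 ± 0.22 and -0.15 ± 0.25. The 4 septin ratios lay between -0.10 and 0.18, and 0 septins passed an unadjusted p of 0.05. The tropomyosin, profilin and actin genes gave 0.25 ± 0.22, 0.17 ± 0.21 and 0.10 ± 0.27.

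**Figure D2:**
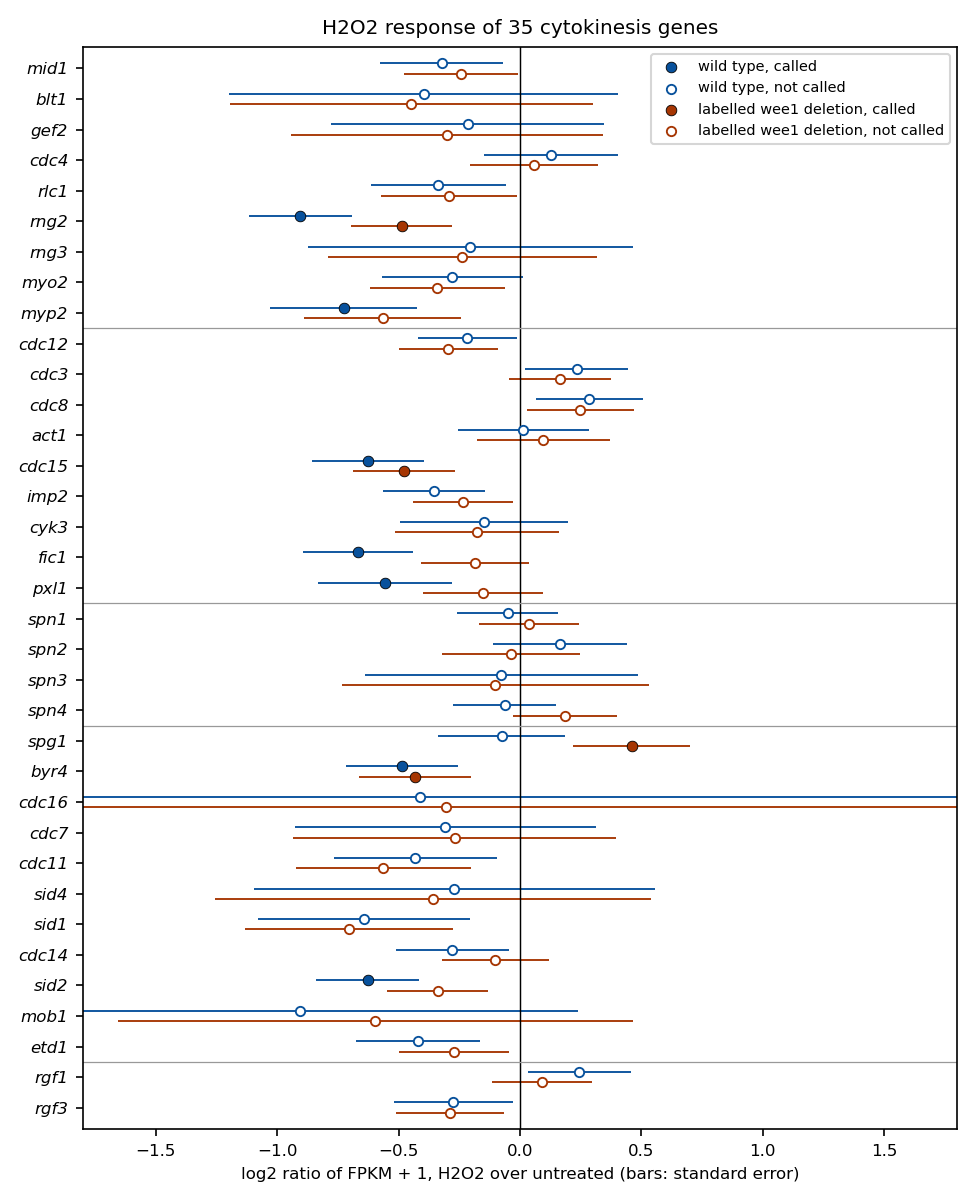
Log2 ratio of FPKM + 1 (H2O2 over untreated) of each gene in wild type and in the strain labelled ∆wee1, with bars of 1 SE; filled symbols are called in the authors' deposited table, and the bars of cdc16 in both strains and mob1 in wild type run past the axis. Filled symbols lie left of 0 except spg1 under the ∆wee1 label, and rng2 in wild type is the called member farthest to the left at -0.90.

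Whether the response itself differed between the strains was tested by a normal z test on the difference of the log2 ratios. None of the 35 members was called, and 0 had an unadjusted p under 0.05, beside 19 of 6109 genes called (0.311%) and 1.54% at the unadjusted threshold. The differences farthest from 0 in units of their SE were 0.48 ± 0.32 for fic1, 0.54 ± 0.36 for spg1 and 0.42 ± 0.30 for rng2, with z between 1.41 and 1.52. All 3 are positive, which means a higher ratio under the ∆wee1 label. The z values over all genes had a robust SD of 0.451, so the implied errors are wide for this test. When z was divided by that SD, 298 of the 6109 genes passed the adjusted threshold of 0.05, among them 3 of the 35 members, fic1, spg1 and rng2. A call in wild type and none under the ∆wee1 label, as for sid2, myp2 and pxl1, is therefore not shown to be a difference between strains.

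Without treatment, the ∆wee1 label was set against wild type. Here 4 of 35 members (11.4%) were called higher in the authors' deposited table, beside 4.64% of 6292 genes tested, and 0 lower, beside 4.21%. At an unadjusted p under 0.05 the counts were 6 and 0, beside 9.25% and 7.83% of all genes of at least 1 FPKM. The 4 called by q were 2 of 14 members alone in their locus, beside 8.62%, and 2 of 21 in shared loci, beside 2.90%. The median was 0.09 over the members and 0.04 over all genes of at least 1 FPKM, and 26 of 35 ratios were positive. After the same rescaling, these medians were 0.29 and 0.23.

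The 4 genes were cdc15, pxl1, etd1 and rgf3, described above by their upstream windows. The F-BAR gene cdc15 had 23.0 FPKM in wild type and 38.7 FPKM under the ∆wee1 label (0.72 ± 0.22, q of 0.000819 in the authors' deposited table). The paxillin-like gene pxl1 (SPBC4F6.12) had 11.2 and 18.1 FPKM (0.64 ± 0.26, deposited q of 0.00498). The network activator gene etd1 (SPAC1006.08) had 23.0 and 40.9 FPKM (0.80 ± 0.24, deposited q of 0.000819). The gene of Rgf3, the essential Rho1 exchange factor of the ring (SPCC645.06c), had 3.95 and 6.75 FPKM (0.65 ± 0.23, deposited q of 0.00153).

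Their partners were not called. The F-BAR gene imp2 gave 0.24 ± 0.21, the exchange factor gene rgf1, which lies 1152 bases from rgf3 on chromosome III, 0.27 ± 0.21, and myo2, 484 bases from rgf3 on its other side, 0.12 ± 0.28. The myosin genes myp2 (0.56 ± 0.31, deposited q of 0.0565) and cdc4 (169 and 236 FPKM, 0.48 ± 0.27, deposited q of 0.0765) came nearest to the threshold. The other 10 genes of the septation network ranged from -0.12 for cdc11 to 0.25 for mob1, with spg1 at 0.01 ± 0.25, sid2 at 0.08 ± 0.21 and byr4 at 0.07 ± 0.22. The septins ranged from -0.12 for spn4 to 0.25 for spn1, and act1 gave 0.09 ± 0.27.

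The strains were then compared after H2O2. The authors' deposited table called 7 of 35 (20.0%) higher under the ∆wee1 label, beside 6.51% of 6333 genes tested, and 0 lower, beside 7.01%. At an unadjusted p under 0.05 the counts were 12 and 0, beside 11.7% and 11.3% of all genes of at least 1 FPKM. Among nuclear protein-coding genes of at least 1 FPKM, 7.49% were called higher and 7.07% lower, and by unadjusted p 13.4% and 11.6%. The 7 called by q were 3 of 14 members alone in their locus, beside 12.0%, and 4 of 21 in shared loci, beside 4.10%. The median was 0.18 over the members and 0.03 over all genes of at least 1 FPKM, and 25 of 35 ratios were positive. After the same rescaling, these medians were 0.48 and 0.33. At a deposited q under 0.01 the count was 4 members, as it was between untreated strains, and the share of all genes at that threshold was not computed. This comparison shares its pools with the ones above, so its counts are not independent of theirs.

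The genes called untreated were called again. In treated cells cdc15 had 14.6 FPKM in wild type and 27.5 FPKM under the ∆wee1 label (0.87 ± 0.22), pxl1 7.33 and 16.2 FPKM (1.04 ± 0.27) and etd1 16.9 and 33.7 FPKM (0.95 ± 0.25), each with a q of 0.000819 in the authors' deposited table. The exchange factor gene rgf3 had 3.09 and 5.34 FPKM (0.63 ± 0.24, deposited q of 0.00601). Added to these were rng2 at 7.50 and 10.5 FPKM (0.43 ± 0.22, deposited q of 0.0358), myp2 at 2.30 and 4.44 FPKM (0.72 ± 0.32, deposited q of 0.0158) and spg1 at 119 and 174 FPKM (0.54 ± 0.25, deposited q of 0.0233). For rng2 and spg1 the untreated strains had differed by 0.01 ± 0.20 and 0.01 ± 0.25. For myp2 they had differed by 0.56 ± 0.31 (deposited q of 0.0565), so its call here is not shown to be a new difference. The kinase gene sid2 (0.37 ± 0.21, deposited q of 0.0866) and imp2 (0.36 ± 0.21, deposited q of 0.0883) were not called, nor was any septin, the highest being spn1 at 0.34 ± 0.21; by unadjusted p, 1 of 4 septins was under 0.05.

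**Figure D3:**
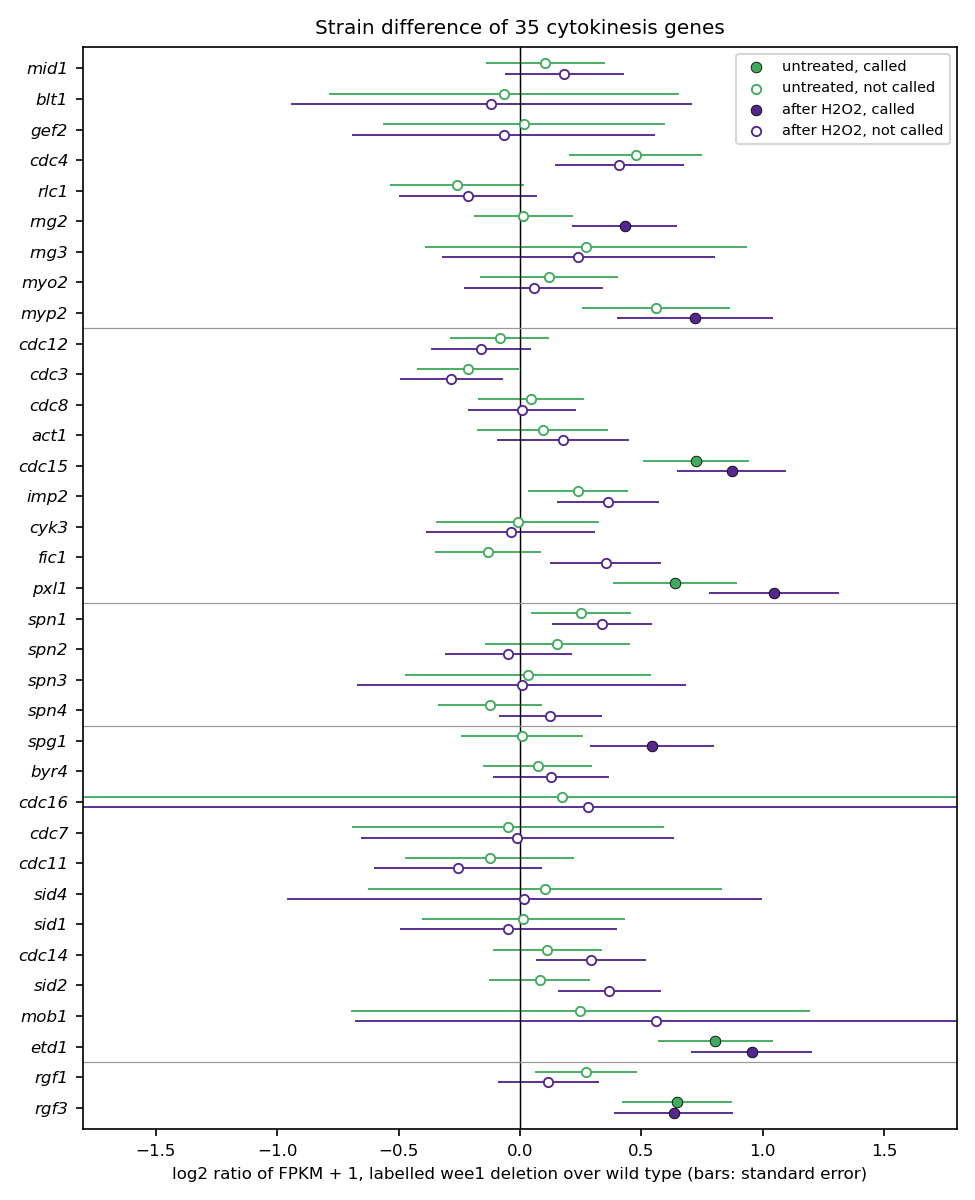
Log2 ratio of FPKM + 1 (the ∆wee1 label over wild type) of each gene untreated and after H2O2, with bars of 1 SE; filled symbols are called in the authors' deposited table, and the bars of cdc16, and that of mob1 after H2O2, reach the edge or run past it. The filled symbols all lie right of 0, for cdc15, pxl1, etd1 and rgf3 in both conditions and for rng2, myp2 and spg1 after H2O2.

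In RefSeq, 9 of the 10 called members overlap a gene on the other strand, all but pxl1, and whether the counting used strand, which the library kit keeps, is not given here. The gene cdc15 overlaps SPNCRNA.740 over 361 bases, and this RNA had 39.2, 40.4, 24.1 and 21.6 FPKM in untreated and treated wild type and in the untreated and treated pools labelled ∆wee1. Its order between strains is the opposite of that of cdc15, and it was not called. The myosin gene myp2 overlaps SPNCRNA.836 over 4786 of its 6444 bases, and this RNA had 4.44, 4.63, 6.04 and 4.75 FPKM in the same order, levels near those of myp2, without a call. The exchange factor gene rgf3 overlaps SPNCRNA.1181, at or under 0.562 FPKM in every group, over 2098 bases. The GTPase gene spg1 overlaps SPAC1565.05 over 124 bases. Reads of such pairs cannot be told apart where counting ignores strand.

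Genes of the same pathways outside the 35 were read from further lists, chosen with earlier results of these data known. Of all genes tested, 7.47% fell and 6.96% rose in treated wild type, and 4.13% and 5.34% under the ∆wee1 label. Between strains, 4.64% were called higher and 4.21% lower untreated, and 6.51% and 7.01% after H2O2. Of 12 other ring and node genes, rng10, whose product anchors the GTPase-activating protein Rga7, fell in treated wild type (34.8 and 20.7 FPKM, -0.72 ± 0.35), and pom1, the polarity kinase gene, was higher under the ∆wee1 label after H2O2 (8.88 and 12.9 FPKM, 0.49 ± 0.23). Each of these single calls is 8.33% of the list, near the share over all genes. The list gave 0 calls in the other 2 comparisons, with 2 and 1 genes at Cuffdiff's unadjusted p under 0.05. Of 12 other septation network genes, 4 (33.3%) fell and 0 rose in treated wild type, beside the shares given above. They were dma1, the ubiquitin ligase that restrains the network (37.8 and 14.7 FPKM, -1.30 ± 0.28), csc1 and csc2, of the phosphatase complex that inhibits it (-1.09 ± 0.26 and -0.57 ± 0.25), and clp1, the Cdc14-family phosphatase gene (-0.71 ± 0.27). Under the ∆wee1 label the same 4 fell with plo1, the polo kinase gene (35.9 and 25.0 FPKM, -0.51 ± 0.21), and zfs1, for an RNA-binding protein, rose (0.43 ± 0.20). Between untreated strains fin1 (0.76 ± 0.24), plo1 (0.74 ± 0.22) and ppc89 (0.58 ± 0.21), for 2 kinases and a spindle pole anchor of Sid4, were called higher and dma1 lower (-0.51 ± 0.25). After H2O2 the first 3 were called higher again.

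The step that follows the ring is cell separation. Of 8 genes for it, 7 were called higher under the ∆wee1 label untreated and 7 after H2O2, beside 4.64% and 6.51% of all genes tested. The medians of the 8 were 0.85 and 0.99. The largest untreated ratios were for adg2, a cell surface glycoprotein gene (52.2 and 193.8 FPKM, 1.87 ± 0.21), and mid2, for the anillin-like organiser of the septins (130.6 and 316 FPKM, 1.27 ± 0.24). Next came cfh4 (0.97 ± 0.36) and adg3 (0.87 ± 0.28). The glucanase gene eng1 reached 1.28 ± 0.22 after H2O2. After H2O2, 5 of the 8 fell in wild type and 4 under the ∆wee1 label, beside 7.47% and 4.13% of all genes tested. The gene adg1 fell most (190.8 and 74.6 FPKM in wild type, -1.34 ± 0.26). Of 12 genes for Rho1 signalling and the septum synthases, 3 fell in treated wild type, beside 7.47% of all genes tested. They were the GTPase-activating protein gene rga5 (-0.80 ± 0.28), the exchange factor gene rgf2 (-0.76 ± 0.21) and the kinase gene pck1 (-0.53 ± 0.22). Under the ∆wee1 label ags1, rgf2 and bgs4 fell, for an alpha-glucan synthase, the exchange factor and a beta-glucan synthase, beside 4.13% of all genes tested. The GTPase gene rho4 was called higher between strains both untreated (48.7 and 99.0 FPKM, 1.01 ± 0.22) and after H2O2 (1.16 ± 0.22), there joined by rga5 (0.62 ± 0.28).

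**Figure D4:**
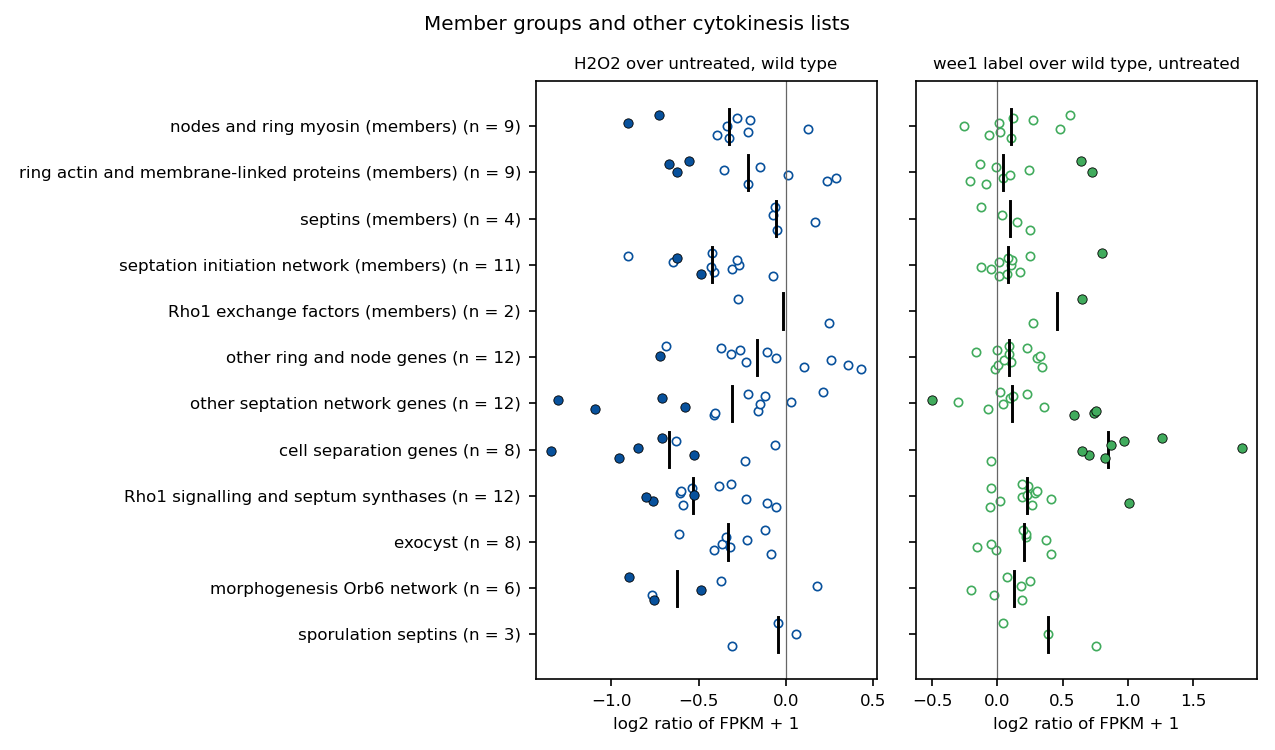
Log2 ratio of FPKM + 1 of every gene of the member groups and of the other lists, for H2O2 in wild type (left) and for the ∆wee1 label over wild type untreated (right); each circle is 1 gene, filled where called in the authors' deposited table, and black bars are list medians. Cell separation genes lie far to the right in the strain panel, with a median of 0.85. The 4 mitotic septins have medians of -0.06 (left) and 0.09 (right). In the strain panel the ring actin and septation network members lie as near 0, with medians of 0.04 and 0.08.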

How the data were processed

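RNA from 8 libraries, 2 in each of 4 groups, was compared, with groups assigned by title. Libraries were made with a stranded TruSeq mRNA kit, per the labels' protocols. The authors used cutadapt, HISAT2 and Cuffdiff, per the submitters' processing notes; their versions, the build, the annotation and the strand setting were not given here. The authors' levels are FPKM, deposited as 1 pooled value per group, so depth per library is unknown and no interval from depth was computed. Per the file headers, the authors' deposited table holds the log2 fold change of 7092 genes in 6 pairs of groups. It also holds the authors' test statistic, a score. Its last deposited columns are the p-value and the q-value, with q-values adjusted over all 6 pairs.

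Ratios were computed here as log2 of FPKM + 1, which understates changes of low genes. Each SE was solved from the deposited log2 fold changes and statistics, whose variances added up to within 9.5e-06 over pairs of groups. The deposited p-values answer to normal deviates a median 1.42 times the statistic, so the SEs are the wider reading. Calls are the deposited q-values under 0.05. The strain difference of the response was tested with a normal z test and Benjamini-Hochberg adjustment over 6109 genes. Windows of 300 bases before annotated starts were read from ASM294v3, trimmed at coding neighbours when printed; of 2102 genes alone in their locus, 2097 shared a start or end with RefSeq. Python 3.11.15, numpy 2.4.6, pandas 2.3.3 and scipy 1.17.1 were used.

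All members and the markers wee1, ura4 and leu1 could be named, plus from each other list at most 4 genes per comparison that were called and had at least 5 FPKM in the higher group, largest change first. Genes named beyond that rule are zfs1, plo1 in treated cells, spn5, spn6, spn7 and partners by locus, chosen after their values were seen. Members and lists were chosen with earlier results of these data known. Some listed items are not reported here. Alternatives were pseudocounts of 5 and 0.1 FPKM, 2 other scalings, no filter, stricter calls and adjustment within a comparison.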

Additional observations from a re-analysis of the deposited data

How the results depend on the processing

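No paired analysis was possible because the files give 1 pooled value per group; leaving out single libraries and a block by replicate number were not run for the same reason. With a deposited q under 0.01, 4 members were called lower in treated wild type, 1 lower and 0 higher in the treated strain labelled ∆wee1, and 4 higher between strains both untreated and after H2O2. With a deposited q under 0.05 and a change of at least 2-fold, these counts were 0, 0, 0 and 1 (pxl1), and 0 were higher between untreated strains. With adjustment within each comparison, 0 were higher in the treated strain labelled ∆wee1. The shares of all genes under these call rules were not computed, so these counts have no background beside them. After rescaling to equal sums of nuclear protein-coding FPKM, the members' median between treated strains was 0.48, where the median of all genes moved by 0.29; in the other 3 comparisons that rescaling moved the median of all genes by -0.23 (H2O2 in wild type), -0.13 (H2O2 under the ∆wee1 label) and 0.19 (untreated strains), and quantile normalization moved it by -0.13 for H2O2 in wild type. With z divided by its robust SD, 3 of 35 members passed the test of the response difference, beside 298 of 6109 genes tested. The cause of these shifts was not tested. Over 2 pseudocounts and 2 scalings, 88 recomputed ratios of called members kept their direction, as did 188 of the called genes named from the other lists by the rule above. A pseudocount cannot turn the sign of a ratio, so only the 2 scalings could have reversed a direction. Genes named beyond that rule were not recomputed. Depth per library is unknown, and the wide errors of genes in shared loci limit what could be called.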

Other observations

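The exocyst, the vesicle tether that delivers septum enzymes to the division site, gave 0 calls among its 8 genes in each of the 4 comparisons of the authors' deposited table. Over all genes tested, 4.13% to 7.47% were called in each direction, so 0 of 8 is near that share. At Cuffdiff's unadjusted p under 0.05 there were 1, 1, 0 and 1 genes. Its medians were -0.33 for H2O2 in wild type, -0.21 for H2O2 under the ∆wee1 label, and 0.21 and 0.20 between the strains untreated and after H2O2. The median SE of its genes was 0.39 to 0.43, so they are not shown to be unchanged.

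The Orb6 network, a kinase cascade for polarised growth that is held back by the septation network during division, fell in part in treated wild type. There 3 of its 6 genes were called lower in the authors' deposited table, beside 7.47% of all genes tested. The kinase gene orb6 had 85.0 and 49.9 FPKM (-0.76 ± 0.21), the upstream kinase gene nak1 30.4 and 21.4 FPKM (-0.48 ± 0.22) and the leucine-rich repeat protein gene sog2 15.8 and 8.02 FPKM (-0.90 ± 0.29). Under the ∆wee1 label only sog2 of the 6 was called (-0.56 ± 0.26), and between treated strains orb6 was called higher (0.70 ± 0.21). The z test of the response difference called neither orb6 (0.52 ± 0.29) nor nak1 (0.25 ± 0.31). A response that differs between strains is therefore not shown for them. The 3 septin genes of spores, spn5, spn6 and spn7, stood between 1.05 and 6.65 FPKM in every pool, far below the 4 mitotic septins. Of these 3, 0 were called or had an unadjusted p under 0.05 in any of the 4 comparisons. Their median SE was 0.49 to 0.79, so they are not shown to be unchanged either.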
